A study of Mus musculus with 10 samples.

Results

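In all, 2501 regions of open chromatin were shared by 4 ATAC-seq libraries of C3H10 T1/2 cells and lay away from the ends of protein-coding genes. They were found by merging the peaks of the 4 deposited lists wherever peaks overlapped by at least 1 bp, which gave 29289 regions. A region was kept when all 4 libraries had a peak in it and when it lay more than 1 kb from both ends of every protein-coding gene of the RefSeq annotation of mm10, on the autosomes other than chromosomes 1, 8, 15 and 16. On those chromosomes 6123 regions were shared, and the other 3622 lay within 1 kb of a gene end. The regions were thus chosen by the presence of a peak in each library and by distance from gene ends, and both are given below as descriptions with no test.

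C3H10 T1/2 is a mouse embryo line of fibroblast-like cells with mesenchymal properties. ATAC-seq marks open chromatin by inserting adapters with the Tn5 transposase, and was done by the Omni-ATAC procedure on 50000 cells in 2 GFP control libraries and 2 libraries of cells in which Piezo1, the gene of a mechanically gated ion channel, was knocked out by CRISPR/Cas9. Whether the knockout cells were 1 clone or a pool is not given in the sources used here. RNA-seq came from 6 other libraries of the line, labelled as C57BL/6 in strain, of cells that carried neither GFP nor the knockout per the labels. These were 3 static controls and 3 libraries after cyclic mechanical strain (CMS) at 0.5 Hz and 10% elongation for 8 h a day over 3 days, and both groups had first spent 48 h on flexible plates coated with collagen. Whether replicates were separate cultures is not stated in the labels, and p-values then reflect only differences among these libraries, possibly technical ones.

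The ATAC-seq lists held 13610 to 26652 peaks, of which 10.5% to 21.8% fell in the 2501 regions. GFP control 2 had the longest list, and the depth behind each list is unknown. The RNA-seq libraries held 36150738 to 41024689 counts. Of 12 mesenchymal marker genes 11 passed the filter on low counts, all except Thy1, and their summed level was 82739 to 90315 CPM (counts scaled to a common library size) in static and 60880 to 72337 CPM in strained cells. Summed blood cell markers stood at 18.6 to 23.6 CPM in static and 32.6 to 33.8 CPM in strained cells, and summed epithelial markers at 51.4 to 64.6 and 18.1 to 23.9 CPM. Neuronal markers stood at 17.2 to 18.5 and 9.21 to 10.7 CPM, liver markers at 2.42 to 2.87 and 1.98 to 3.15 CPM, and endothelial markers at 39.7 to 45.2 and 34.2 to 42.6 CPM. From 3 (epithelial) to 8 (neuronal and liver) genes of each of these lists had no count in any library, Epcam, Emcn and Pck1 among them, and the part these shifts play in the strain results below was not tested. Piezo1 lies on chromosome 8, outside the chromosomes used. The single merged region over it had a peak in both GFP libraries and in Piezo1 knockout 2 but not in Piezo1 knockout 1, and an open region there does not check the label.

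Open chromatin away from gene ends is known to hold enhancers, short stretches of DNA where transcription factors bind and from which a promoter can be activated over long distances. It also holds sites of CTCF, the factor that anchors chromatin loops, and promoters of transcripts other than coding genes. AP-1, the dimer of Fos and Jun proteins, and the TEAD factors, partners of the YAP and TAZ coactivators, are factors known to bind many enhancers of fibroblasts. A single assay of open chromatin does not tell these kinds of element apart.

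The sequences shown are RefSeq start windows (GRCm38.p6, the mm10 build) that lie wholly under one of the regions. They were picked as the windows with the highest peaks in all 4 libraries among those holding the letters of AP-1 (TGACTCA), TEAD (CATTCCA) or the CTCF core motif on either strand, plus 1 window with none of the 21 motifs searched. Coding genes are shown by the 250 bases before their start and lncRNA genes by the whole 300-base window, 5′ to 3′ on the gene's strand. Capitals mark only the motif for which a window was picked, and letters of other motifs stay in lower case. The Gm30284 window, picked for AP-1, also held the CTCF letters.
Zfp790, chr7:29815822-29816071, plus strand: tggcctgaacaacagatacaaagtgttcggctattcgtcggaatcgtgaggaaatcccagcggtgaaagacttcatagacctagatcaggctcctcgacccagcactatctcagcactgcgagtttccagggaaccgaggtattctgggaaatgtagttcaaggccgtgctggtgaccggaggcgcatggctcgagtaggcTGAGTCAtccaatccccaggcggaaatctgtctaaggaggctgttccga
Gm30284, chr17:86444938-86445237, minus strand: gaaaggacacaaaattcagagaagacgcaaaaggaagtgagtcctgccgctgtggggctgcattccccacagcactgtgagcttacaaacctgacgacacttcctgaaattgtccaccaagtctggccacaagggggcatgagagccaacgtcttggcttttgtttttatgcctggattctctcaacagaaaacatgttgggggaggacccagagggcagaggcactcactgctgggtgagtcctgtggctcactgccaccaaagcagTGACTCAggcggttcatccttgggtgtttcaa
Tank, chr2:61592902-61593151, plus strand: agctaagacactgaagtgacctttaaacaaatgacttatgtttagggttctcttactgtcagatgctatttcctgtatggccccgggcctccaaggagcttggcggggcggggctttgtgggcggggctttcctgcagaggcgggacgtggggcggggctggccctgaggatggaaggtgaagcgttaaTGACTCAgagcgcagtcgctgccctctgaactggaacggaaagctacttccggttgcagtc
Cetn3, chr13:81782997-81783246, plus strand: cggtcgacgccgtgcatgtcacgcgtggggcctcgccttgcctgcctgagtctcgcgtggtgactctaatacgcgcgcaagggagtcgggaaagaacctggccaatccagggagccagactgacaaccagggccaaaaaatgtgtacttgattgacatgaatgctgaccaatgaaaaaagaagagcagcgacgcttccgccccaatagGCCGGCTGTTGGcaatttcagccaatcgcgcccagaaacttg
Gzf1, chr2:148680870-148681119, plus strand: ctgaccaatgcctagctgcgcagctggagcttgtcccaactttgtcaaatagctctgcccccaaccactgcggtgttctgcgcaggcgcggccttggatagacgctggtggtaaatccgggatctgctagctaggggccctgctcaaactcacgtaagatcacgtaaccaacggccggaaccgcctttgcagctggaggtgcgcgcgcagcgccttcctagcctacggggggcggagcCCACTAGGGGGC
2610035D17Rik, chr11:113201789-113202088, minus strand: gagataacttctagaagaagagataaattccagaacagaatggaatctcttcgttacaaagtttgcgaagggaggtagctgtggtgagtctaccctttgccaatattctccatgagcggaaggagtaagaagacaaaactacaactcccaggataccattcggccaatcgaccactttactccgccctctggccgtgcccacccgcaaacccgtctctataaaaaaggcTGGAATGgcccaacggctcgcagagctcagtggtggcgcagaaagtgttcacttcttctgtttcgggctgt
Cnnm2, chr19:46761359-46761608, plus strand: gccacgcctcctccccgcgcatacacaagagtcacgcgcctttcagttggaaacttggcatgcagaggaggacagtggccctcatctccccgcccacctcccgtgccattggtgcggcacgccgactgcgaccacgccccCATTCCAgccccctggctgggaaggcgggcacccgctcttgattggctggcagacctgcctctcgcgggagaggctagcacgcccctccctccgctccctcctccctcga
Gm52779, chr5:74944238-74944537, minus strand: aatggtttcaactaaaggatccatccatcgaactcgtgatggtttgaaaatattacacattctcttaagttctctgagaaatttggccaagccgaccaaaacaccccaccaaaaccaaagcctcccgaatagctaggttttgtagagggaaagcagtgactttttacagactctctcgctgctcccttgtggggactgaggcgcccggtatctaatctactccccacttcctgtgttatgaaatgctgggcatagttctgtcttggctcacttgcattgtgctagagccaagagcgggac

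The AP-1 letters began 49 bases before the start of the zinc-finger gene Zfp790, 61 bases before that of Tank, an adaptor of NF-kB signalling, and 18 bases after that of the lncRNA gene Gm30284. The region over the Zfp790 start had fold enrichments, the height of a peak over the local background of its own library as deposited by the authors, of 7.18 and 9.74 in the GFP libraries and 7.4 and 11 in the knockout libraries. The region at Gm30284, with values of 6.75, 8.54, 7.69 and 7.88 in the same order, lay 213 kb from the nearest coding gene end. Cetn3, which codes for centrin 3, had the CTCF letters 42 bases before its start under a region of 10.9, 8.8, 6.85 and 8.46. The window of the lncRNA gene Gm52779 held none of the motifs and stood under a region of 8.25, 9.44, 9.57 and 8.2, above the values of the Tank and Gzf1 regions in every library except GFP control 2 at Tank (9.54).

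Most of the regions lay many kilobases from a coding gene end. The median distance was 18.4 kb (quartiles 6.05 and 50.6 kb), and 1350 of the 2501 regions (54%) had their summit between the ends of a coding gene. By distance, 541 lay at 1 to 5 kb, 352 at 5 to 10 kb, 971 at 10 to 50 kb, 311 at 50 to 100 kb, 317 at 100 to 500 kb and 9 farther out. The farthest, on chromosome 2 (46442792 to 46443661), stood 1325 kb from the end of Zeb2, which codes for a zinc-finger repressor of epithelial genes. It overlapped the start window of the lncRNA gene Gm13470. Its fold enrichments were 6.83 and 5.88 in GFP control and 5.4 and 5.75 in knockout cells. The next farthest, 698 kb from Rfpl4b on chromosome 10, overlapped the start window of the lncRNA gene Gm31378.

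The distance limit was a sharp line through a continuum. Just inside it were regions at Arih1, Wdr62 and in Zfp369, at 1 to 1.01 kb from a gene end, and just outside it regions in Ehd1, Exoc3 and Kdm6b, at 0.987 to 0.993 kb. The Arih1 region had fold enrichments of 8.1, 6.9, 7.07 and 6.93 and the Kdm6b region 3.96, 5.42, 4.16 and 3.95, in the order GFP control 1 and 2 and knockout 1 and 2. Each of the 6 regions next to the limit lay inside a coding gene.

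**Figure D1:**
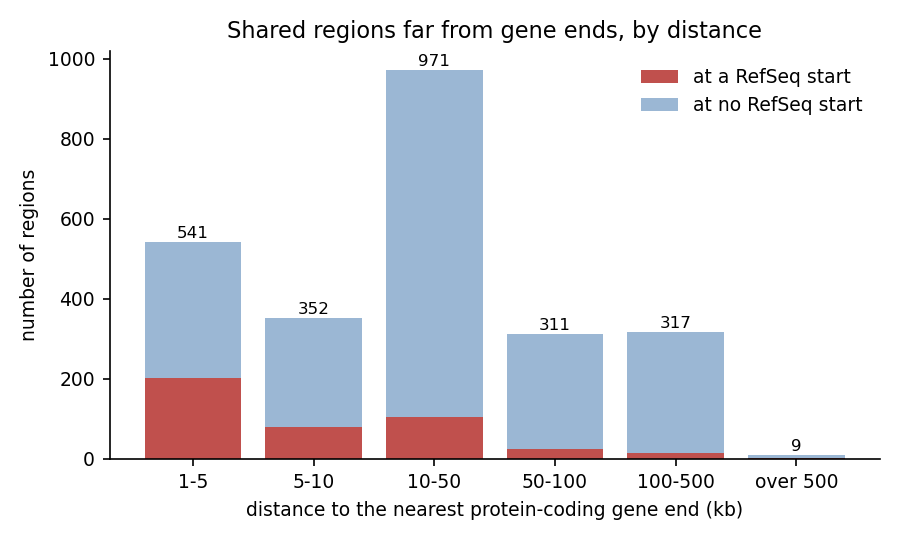
Number of the shared regions (y axis) in each bin of distance to the nearest protein-coding gene end in kb (x axis), with the part that overlaps a RefSeq start window in red and the rest in blue. The red part is 37.2% of the 541 regions at 1 to 5 kb and 4.73% of the 317 at 100 to 500 kb.

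Being far from gene ends did not mean being far from a start of transcription. A total of 426 regions (17%) overlapped a RefSeq start window, of which 322 covered a start of a coding gene, 139 a start of an lncRNA gene and 35 both. All 322 at a coding start lay inside the span of that same gene, at a median of 4.17 kb from the nearest end, so they marked a start internal to the annotated gene. Among the highest were those at Aph1b, a subunit of gamma-secretase, at Bclaf1, and at Anapc15, a subunit of the anaphase-promoting complex. The Aph1b region had 10.4 and 10.2 in GFP control and 9.71 and 11.1 in knockout cells. Shared regions at gene ends overlapped a start window in 81% of cases, and far regions found in only 1 to 3 libraries in 4.64%.

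The share at a start fell with distance, from 37.2% at 1 to 5 kb through 22.4% at 5 to 10 kb, 10.8% at 10 to 50 kb and 7.72% at 50 to 100 kb to 4.73% at 100 to 500 kb, and 2 of the 9 farthest regions sat on an lncRNA start. The start table held 81.1% of the coding genes on these chromosomes and none on chromosome 18, where 100 of the regions lay, so the counts at a start are lower limits. Of the 2075 regions at no start, 324 lay in the body of an lncRNA gene, 254 of them outside every coding gene.

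The share of regions far from gene ends fell with the number of libraries that had them. Of the merged regions in a single library 77% were far from gene ends, against 71.7% of those in 2 libraries, 57.2% in 3 and 40.8% in all 4. The 2501 regions were wide, with a median of 738 bases (quartiles 650 and 844), close to the 758 bases of shared regions at gene ends and unlike the 275 bases of far regions in 1 to 3 libraries. Width and number of libraries are linked by the merging itself, since peaks of 4 lists join into longer regions. Per chromosome, the share of shared regions that was far from gene ends ran from 33.7% on chromosome 7 to 48.6% on chromosome 12.

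Peaks of the far regions were slightly lower than those at gene ends in each library. Median fold enrichment was 5.63 and 6.73 in GFP control 1 and 2 and 5.75 and 5.36 in knockout 1 and 2, against 5.83, 7.17, 6.34 and 6.05 for shared regions at gene ends. Far regions in 1 to 3 libraries had medians of 4.75, 4.91, 4.69 and 4.53. Within the 2501 regions, the 426 at a start had medians of 5.9, 6.8, 5.97 and 5.78 and the 2075 at no start 5.56, 6.7, 5.69 and 5.25. The quartile ranges of shared regions at gene ends and of the far regions at a start and at no start overlapped in every library. The far regions in 1 to 3 libraries stood lower, and in GFP control 2 their upper quartile of 5.69 lay below the lower quartile of 5.75 of the 2501 regions. That contrast is tied to the choice of regions with a peak in all 4 libraries and is a description only. A region's height in a library is that of its highest peak there. Fold enrichment is relative to each library's own background, so values are read across libraries only side by side.

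**Figure D2:**
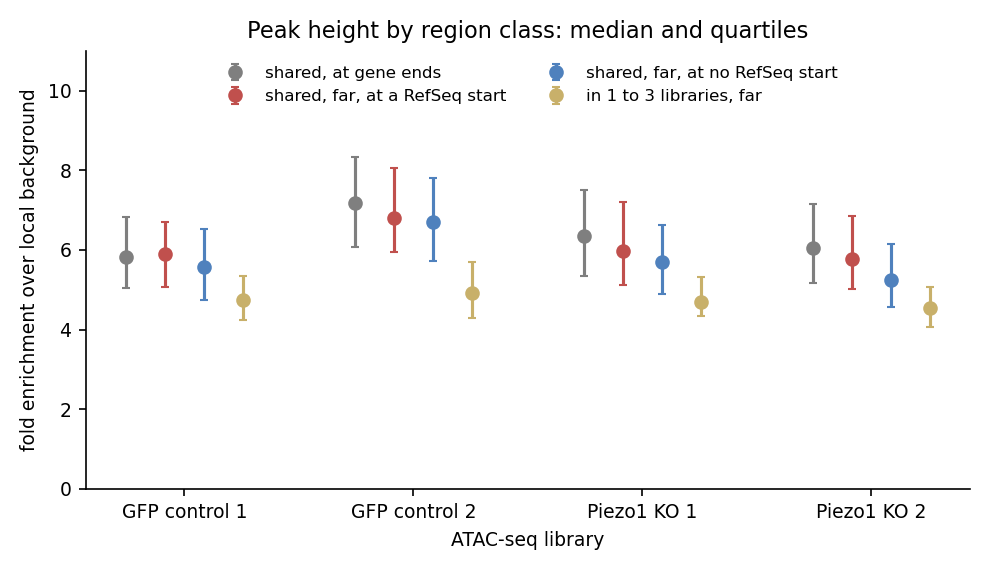
Authors' fold enrichment over local background (y axis) in the 4 ATAC-seq libraries (x axis) for 4 classes of region, as medians (points) with quartiles (bars). Shared regions far from gene ends at no RefSeq start (blue) have lower medians than those at a start (red) in each library, by less than the spread within either class.

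Height tracked between libraries more closely within a group than across groups. Over the 2501 regions, the Spearman correlation of fold enrichment was 0.66 between the GFP libraries, 0.61 between the knockout libraries and 0.47 to 0.52 for the 4 pairs across groups. Over the 3622 shared regions at gene ends it was 0.66, 0.67 and 0.59 to 0.65. These correlations are across regions of the same libraries and are descriptions only.

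The highest regions were chosen by their lowest rank over the 4 libraries, so that being high in each of them follows from the choice. One of them, at the lncRNA start 1700028E10Rik inside Stard13, which codes for a GTPase-activating protein, had fold enrichments of 9.72 and 12.6 in GFP control and 10.6 and 10.3 in knockout cells. A region inside Mertk, the gene of a receptor tyrosine kinase known for the uptake of dying cells, stood 39.6 kb from the gene's end and at no start, with 9.68, 11.1, 10 and 10.2. Another in the phospholipid-flippase gene Atp8b4 had 9.26, 11.9, 11.7 and 10. Near the gene of the transcription factor Tead4, 26 kb from its end, a region had 9.2, 10.7, 9.08 and 9.42.

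Fewer of the far regions ranked higher in both knockout libraries than lower, and gene-end regions showed the opposite split. Each library's fold enrichment was ranked among the 6123 shared regions, and 418 of the 2501 far regions (16.7%) ranked higher in both knockout libraries than in both GFP libraries, against a background of 21% of all shared regions. Ranks were lower in both knockout libraries for 662 (26.5%), against a background of 19.6%. For shared regions at gene ends the shares were 24% and 14.8%. Within one list of ranks a lower place for one class is a higher place for the other, and when the far regions were ranked only among themselves the 2 counts were 527 and 532. With 2 libraries against 2 an exact permutation test cannot go below a two-sided p of 0.333, so no region was tested.

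Lower ranks in the knockout libraries had a larger share among far regions at no start. Of the 2075 at no start 28.6% ranked lower in both knockout libraries and 16.3% higher, while for the 426 at a start the shares were 16% and 18.5%. This difference between the classes was not tested. On 14 of the 15 chromosomes used more far regions ranked lower than higher, against 19.6% lower and 21% higher over all shared regions. The split was most unequal on chromosome 18 with 34% and 10%, and the exception was chromosome 11 with 20.4% and 20.8%. These counts use ranks among all shared regions. Ranked only among themselves, far regions split into 532 lower and 527 higher over all these chromosomes, and this was not counted per chromosome.

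Regions with the widest gap in rank between the groups were picked after their values were seen and are given as examples. One 47.6 kb from the end of Zswim6 on chromosome 13 had 4.61 and 5.33 in GFP control and 8.21 and 8.57 in knockout cells. Another, 28.2 kb from the end of Ccl2, the gene of a chemokine that attracts monocytes, had 4.63 and 4.4 against 7.38 and 6.94. In the other direction, a region 5.4 kb from Reep3 had 7.59 and 8.43 in GFP control and 4.32 and 3.95 in knockout cells. A region in Vangl1, a gene of planar cell polarity, had 7.42 and 9.22 against 5.06 and 4. The ranks of the 2 groups did not overlap in these examples because the choice required it.

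The regions mostly stood alone. Joined with neighbours by gaps of at most 12492 bases, they formed 2293 chains, of which 2114 held a single region, 155 held 2, 20 held 3, 3 held 4 and 1 held 5, so that 15.5% of the regions had a close neighbour. The chain of 5 spanned 21.4 kb on chromosome 11 (98773699 to 98795060) from Nr1d1, which codes for the clock repressor REV-ERB alpha, to Msl1, a subunit of a histone acetyltransferase complex. Its fold enrichments were modest, between 3.67 and 6.09 over all regions and libraries.

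The chains of 4 differed in height. One on chromosome 6 (51163077 to 51178978), around the lncRNA gene Gm32328, held a region of 9.6 and 9.66 in GFP control and 12.3 and 9.43 in knockout cells beside 3 regions of at most 6.23. On chromosome 17 (70719792 to 70747262) 4 regions lay inside Dlgap1, 99.5 to 126 kb from the start of Tgif1, with 4.41 to 9.02. The chain on chromosome 19 (5786651 to 5812596), between Ltbp3 and Frmd8, ranged from 3.41 to 6.48. Shorter chains of 3 included one by Klf4, one in Vgll4 and one in Medag, the gene of an adipogenesis factor.

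Assigned to the nearest coding start in the table, 2401 regions fell to 1678 of 13753 genes (12.2%), with 172 genes nearest to 3 or more and 23 nearest to 5 or more. The median distance to the assigned start was 28.8 kb, and 519 regions lay more than 100 kb from it. For 477 of the 2401 (19.9%) a gene missing from the start table had a closer end, and the genes with the most regions were partly of this kind. All 12 regions of the defensin gene Defb42 and 5 of 11 of Haao had such a closer gene, and neither gene's RNA passed the filter. By nearest gene end, over all coding genes, the genes with the most were Rad51b with 10, Zmiz1 with 9, Klf6 with 8 and Pakap with 7.

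Several genes were among the 20 with the most regions under both rules. Zmiz1, a coregulator of transcription, had 9 regions, of which 3 lay inside it, from 1.95 to 317 kb from its start and with fold enrichments between 3.49 and 7.08. Gas1, a co-receptor of Hedgehog ligands, had 6 between 29.5 and 187 kb away, which did not all differ in one direction. One stood at 7.61 and 8.25 in GFP control and 5.14 and 4.84 in knockout cells. Another, 66.5 kb away, stood at 4.81 and 6.16 in GFP control and 7.83 and 6.65 in knockout cells. Errfi1, an inhibitor of the EGF receptor, had 6 including one at its start. Akap6, an anchor of protein kinase A, and Prkca, protein kinase C alpha, had 5 each, 4 of them inside the gene. Tgif1, a repressor of TGF-beta responses, was nearest to 7 by start, but was not among the 20 genes with the most regions by gene end.

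The AP-1 and immediate-early factors, the genes that cells switch on within minutes of a stimulus, had the highest share of genes nearest to a region among the lists compared. Of 11 such genes with a known start, 10 were nearest to at least 1 region, for 25 regions in all, against 12.2% of all coding genes, and the remaining gene was Fosb. By nearest gene end it was 11 of 14 genes, against 10.8% of all, and 8 of 11 had a region within 50 kb of a start, against 17.9%. How far genes stand from their neighbours sets how many regions fall to them, and no list was matched for it. Nor was any list matched for expression. All 23 genes of the whole list passed the filter on low counts in RNA-seq, against 59.8% of all coding genes with a start.

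Klf6, a zinc-finger factor, had 8 regions at 15.7 to 559 kb from its start, none inside the gene. The one 23.6 kb away had 6.83 and 6.42 in GFP control and 5.95 and 4.86 in knockout cells, and the one 559 kb away 6.53, 9.82, 9.34 and 7.43. Klf4, a related factor, had 5 at 118 to 581 kb. Its nearest region had 8.44, 8.7, 5.88 and 8.43, while a chain of 3 about 189 to 199 kb away reached at most 6.79.

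Fos, a subunit of AP-1, had regions at 11.8, 18 and 23.5 kb. The one at 18 kb had 8.76 and 9.65 in GFP control and 8.65 and 8.78 in knockout cells. The one at 11.8 kb had 5.32 and 8.16 against 4.56 and 4.29, and the one at 23.5 kb 7.17 and 9.79 against 7.36 and 5.65. Jun, the partner of Fos in AP-1, had a single region 30.2 kb away with 6.92, 6.35, 5.8 and 5.28. Of the others, Ier3 and Srf, the serum response factor, had 2 each, and Fosl2, Mafk, Egr2 and Nr4a2 had 1 each, with the regions at Egr2 and 1 at Srf lying on the gene's own start.

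**Figure D3:**
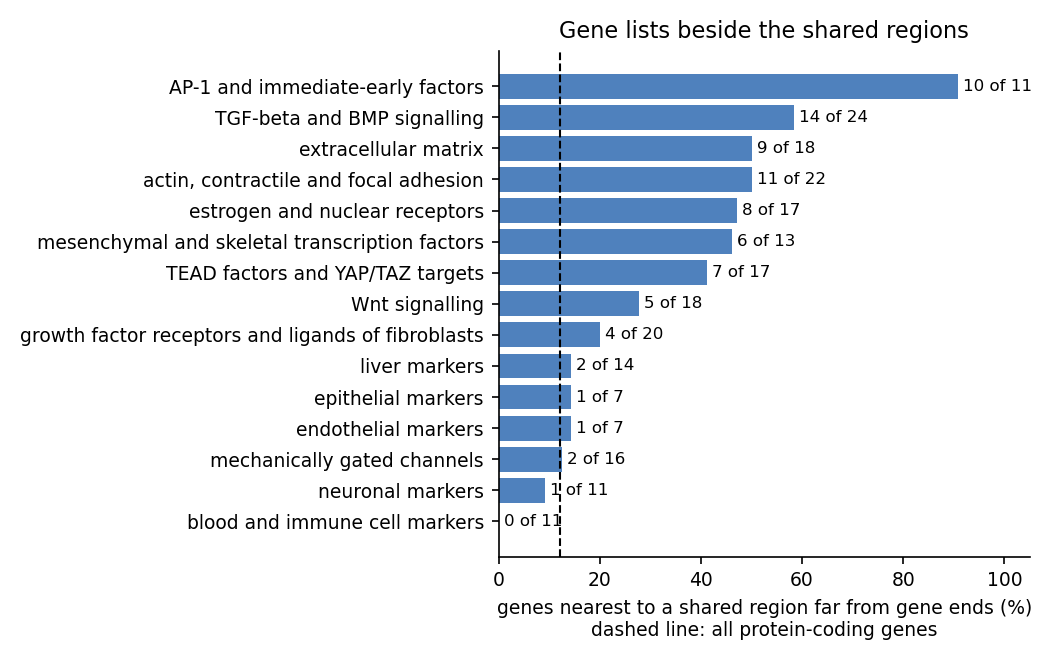
Share of the genes of each list that are nearest, by RefSeq start, to at least 1 of the shared regions far from gene ends (x axis, %), with the counts beside the bars and the share over all protein-coding genes as a dashed line. AP-1 and immediate-early factors stand highest at 90.9%, and blood and immune markers have 0 of 11 genes.

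Lists of signalling, matrix, cytoskeletal and transcription factor genes came next. TGF-beta and BMP signalling had 14 of 24 genes nearest to a region, extracellular matrix 9 of 18, actin and focal adhesion 11 of 22, estrogen and nuclear receptors 8 of 17, mesenchymal transcription factors 6 of 13, and TEAD factors and YAP/TAZ targets 7 of 17. Ltbp3, which binds latent TGF-beta in the matrix, had 4, of which 3 had a closer gene end of a gene without a start in the table. The collagen genes Col6a2 and Col5a1 had 3 each and Col1a2 had 2. Rxra, the partner of many nuclear receptors, had 3, among them a region 76.3 kb away with 8.68 and 9.63 in GFP control and 6.49 and 5.24 in knockout cells. Wnt signalling had 5 of 18 and fibroblast growth factors and receptors 4 of 20.

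Markers of other cell types lay near the background of 12.2% or below it. No region was nearest to a blood and immune marker (0 of 11 genes), and 1 of 11 neuronal, 1 of 7 epithelial, 2 of 14 liver and 1 of 7 endothelial markers had one. Of the mechanically gated channels 2 of 16 genes did. These were Tmc1, the channel of inner-ear hair cells, with 3 regions at 123 to 152 kb, and Gja1, which codes for connexin 43, with 1 region at 109 kb of 6.35 and 9.04 in GFP control and 4.69 and 5.41 in knockout cells.

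The sequence under the regions could be read at 529 start windows of 300 bases that overlap them. AP-1 letters were in 38 of these (7.18%, 95% exact binomial interval 5.13% to 9.73%), in 2.89% of the 4042 windows under shared regions at gene ends and in 5.28% of all 25926 windows. CTCF letters were in 4.16%, 2.87% and 2.46% of the same sets and TEAD letters in 3.4%, 2.28% and 4.17%. The intervals of AP-1 under far regions and under gene-end regions (2.4% to 3.46%) did not overlap, while those of CTCF and TEAD did. The AP-1 interval under far regions did overlap that of all windows (5.02% to 5.56%). The sets also differ in their mix of coding and lncRNA starts. Among coding starts AP-1 letters were in 6.17% of windows under far regions and 4.74% of all. A match is of letters only, and windows of one gene or pair of genes can overlap, so the intervals cover counting error only and may be too narrow.

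Letters of CpG-rich promoters were more frequent under both sets of shared regions than in all windows, and most frequent under gene-end regions. The GC box (GGGCGG) was in 60.7% of windows under far regions against 71.6% under gene-end regions and 36.2% of all, and the ETS letters (CCGGAAG) in 17.6%, 24.3% and 8.99%. Median GC content was 61%, 62.7% and 53%. GATA letters (AGATAA) were in 5.1%, 4.11% and 11.1%, and homeobox letters (TAATTA) in 2.46%, 1.46% and 5.18%. The estrogen response element was in none of the 529 windows, which allows a share of up to 0.695% by the exact interval, and in 0.0733% of all. Windows at starts are a minority of these regions, so the shares say nothing of the 2075 regions at no start.

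**Figure D4:**
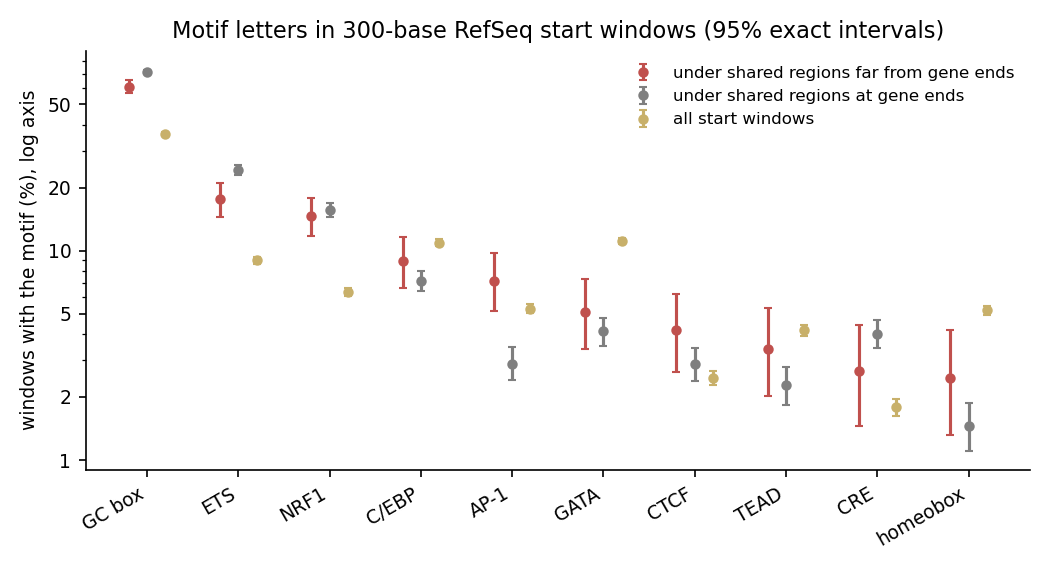
Share of 300-base RefSeq start windows holding the letters of each motif on either strand (y axis, %, log axis) for windows under the far shared regions (red), under shared regions at gene ends (grey) and all windows (yellow), with 95% exact binomial intervals. AP-1 stands at 7.18% in red, 2.89% in grey and 5.28% in yellow, and the GC box at 60.7%, 71.6% and 36.2%.

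Of 751 miRNA hairpins on these chromosomes 3 overlapped one of the regions. Mir7671, near the interferon regulatory factor gene Irf1, lay wholly under a region of 7.1 and 6.19 in GFP control and 8.33 and 6.63 in knockout cells, and Mir7028, in Tchp, in part. Mir199a-1 lies within the dynamin gene Dnm2 and shared 5 bases with a region that had 6.74 and 8.14 in GFP control and 5.41 and 6.19 in knockout cells. The mature RNAs of Mir7671 and Mir199a-1 are given with the seed, bases 2 to 8, in capitals. Their arms have 4 different seeds, and miR-199a is known as a miRNA of mesenchymal cells.
mmu-miR-7671-5p: aGGCUCCGcucuggcuagcuucc
mmu-miR-7671-3p: aAGCGGGCaggcggagaaccac
mmu-miR-199a-5p: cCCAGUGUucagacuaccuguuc
mmu-miR-199a-3p: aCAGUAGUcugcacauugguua

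Genes beside the regions were widely expressed in the static and strained cells. Of 1658 nearest genes with a row of counts, 1412 passed the filter on low counts (85.2%), against 59.8% of all coding genes with a start. Coding genes with a start under a region passed in 305 of 310 cases (98.4%), and lncRNA genes with a start under one in 60 of 119 cases (50.4%, against 10.7% of all lncRNA genes). The filter asked for enough counts in as many libraries as a group holds. Level and openness come from different cells here.

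Nearest genes were called under strain at shares somewhat above those of all genes. The difference was not tested, and for higher genes its size depended on how regions were assigned. Of the 1412 tested, 107 were higher under strain (7.58%, against a background of 5.94% of all 15335 genes) and 125 lower (8.85%, against a background of 7.39%), at an adjusted p under 0.05 in edgeR. Over the 8079 tested coding genes with a start on the chromosomes used, 6.2% were higher and 7.46% lower. The median log2 fold change of the nearest genes was 0.02, against 0.00 over all genes. Of 2010 tested genes with a region within 50 kb of a start, 124 were higher (6.17%) and 174 lower (8.66%). By nearest gene end the shares were 8.46% higher and 9.81% lower. Among 141 genes nearest to 3 or more regions 17 were higher (12.1%) and 13 lower (9.22%). Leaving out static control 1, strain replicate 2 or strain replicate 3 cut the counts to 46 and 64, 50 and 81, and 45 and 64 higher and lower genes, with backgrounds between 2.36% and 4.2%. Without a filter on low counts 176 were higher (11.1%, against a background of 5.64%) and 158 lower (9.99%, against 6.22%).

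Among the higher genes, Cyp1b1, a cytochrome P450 that oxidises steroids including estradiol, rose most of the 10 with the most regions. It had 172, 179 and 131 CPM in static and 413, 424 and 369 CPM in strained cells (2.5-fold, log2 fold change 1.32, SE 0.13, edgeR adjusted p = 0.000185). Its nearest region had fold enrichments of 7.65 and 8.97 in GFP control and 7.75 and 7.47 in knockout cells. Vcan, which codes for the matrix proteoglycan versican, had 115, 131 and 81.7 CPM against 247, 297 and 277 CPM (2.5-fold, edgeR adjusted p = 0.000659) and 2 regions. Kitl, the ligand of the receptor KIT, had 14.7, 16.2 and 9.89 CPM against 37, 26.2 and 27.9 CPM, with a region inside it of 9.01 and 9.43 in GFP control and 6.32 and 5.43 in knockout cells. In none of these 3 genes did the groups of RNA-seq libraries overlap, but the genes were picked among called ones. The share of all genes without overlap was not counted.

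Hif1a, the oxygen-regulated transcription factor, had 479, 505 and 361 CPM in static and 697, 727 and 671 CPM in strained cells (1.56-fold, edgeR adjusted p = 0.00988), with 3 regions of which 1 lay on a start. Akap6 rose from 10 ± 1.6 to 16.8 ± 2.48 CPM (SD, n = 3 each, edgeR adjusted p = 0.013), a call lost without strain replicate 2. Tob1, an antiproliferative factor, rose 1.56-fold and Camk1d, a calcium-dependent kinase, 1.88-fold, and Zfp365 1.7-fold.

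Among the lower genes, Medag had 46.4, 44.5 and 51.8 CPM in static and 24, 22.7 and 21.2 CPM in strained cells (log2 fold change -1.07, SE 0.11, edgeR adjusted p = 0.000212). Of its 4 regions the one farthest from its start had 7.45 and 10.4 in GFP control and 4.15 and 4.88 in knockout cells. Arrdc3, an arrestin-like adaptor, had 40.5, 40.5 and 37.9 CPM against 23.3, 27.5 and 22.9 CPM and 5 regions, one of them at its start. The glycolytic genes Hk1, which codes for a hexokinase, and Pfkfb3 had 0.615 and 0.549 of their static levels. Rnd3, a small GTPase, stood at 0.698 of its static level, a call lost without static control 1.

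The matrix genes beside the regions were mostly lower under strain. Of the 9 nearest to a region, all tested, 6 were lower and 1 (Vcan) higher. The 6 were Col1a2, Col5a1, Col6a2, Postn, Sparc and Tnc, collagens and secreted matrix proteins. The calls of Col5a1, Postn and Tnc were lost without static control 1 or strain replicate 3, among other libraries. Col6a2 had 1894, 1922 and 1941 CPM in static and 1151, 1288 and 1276 CPM in strained cells (log2 fold change -0.63, SE 0.10, edgeR adjusted p = 0.00236). Col1a2 stood at 22846 ± 806 CPM against 15608 ± 1159 CPM (SD, n = 3 each). Over the whole matrix list 15 of 40 tested genes were lower and 3 higher, against the background of 7.39% and 5.94%.

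Few immediate-early genes were called. Of the 10 with a region 1 was higher, against a background of 5.94% of all genes, Mafk, a small Maf partner of AP-1-like factors, at 20.4, 22.8 and 21.2 CPM in static and 36, 30.1 and 31.6 CPM in strained cells (1.52-fold, edgeR adjusted p = 0.00698). None was lower by edgeR or DESeq2, and at an unadjusted p under 0.05 the counts were 4 higher and 1 lower. Klf6 had 177, 175 and 169 CPM against 172, 192 and 215 CPM (edgeR adjusted p = 0.375). Fos had 168, 159 and 144 CPM against 165, 198 and 175 CPM (edgeR adjusted p = 0.264), and in both genes the groups overlapped. In the whole list 2 of 23 tested genes were higher and 1 lower, against backgrounds of 5.94% and 7.39%.

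TGF-beta and BMP genes were called in both directions. Over the whole list 6 of 37 tested genes were higher and 7 lower, against backgrounds of 5.94% and 7.39% of all genes. Of 14 with a region, Ltbp2, a matrix protein related to Ltbp3, rose 1.81-fold and Tgfbr1, a TGF-beta receptor, 1.39-fold, and Bmp4, Id3 and Smad6, which inhibits BMP signalling, were lower. Id3 and Smad6 stood at 0.649 and 0.735 of their static levels. Id3 lost its call without strain replicate 1 or 3, and Tgfbr1, Bmp4 and Smad6 lost theirs without any of at least 3 libraries, strain replicate 3 among them. Among 8 nuclear receptor genes with a region, from a list with 1 of 24 tested genes higher and 3 lower, Rara and Rarb, receptors of retinoic acid, were lower, at 0.676 and 0.44 of their static levels, and Rarb lost its call without any of 5 libraries. Ppard was called higher by edgeR but not by DESeq2, with 0.783, 0.786 and 1.36 CPM in static and 7.34, 0.508 and 11.2 CPM in strained cells, so that its groups overlapped. Of 5 Wnt genes with a region, Tcf7l1, which represses Wnt targets, had 40.7, 38.1 and 45.6 CPM against 25.6, 23.6 and 23.5 CPM (edgeR adjusted p = 0.00163), and Wnt11 was lower too, a call lost without strain replicate 3. Over the whole Wnt list 1 of 30 tested genes was higher and 7 were lower. Of 7 YAP/TAZ-related genes with a region Ccn1 and Nt5e were lower, from a list with 2 of 26 higher and 3 lower. Of 11 actin-related ones Tpm1, a tropomyosin, was lower, at 0.642 of its static level, from a list with 1 of 41 higher and 5 lower. Both Ccn1 and Nt5e lost their call without static control 1 or 2 or strain replicate 3.

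**Figure D5:**
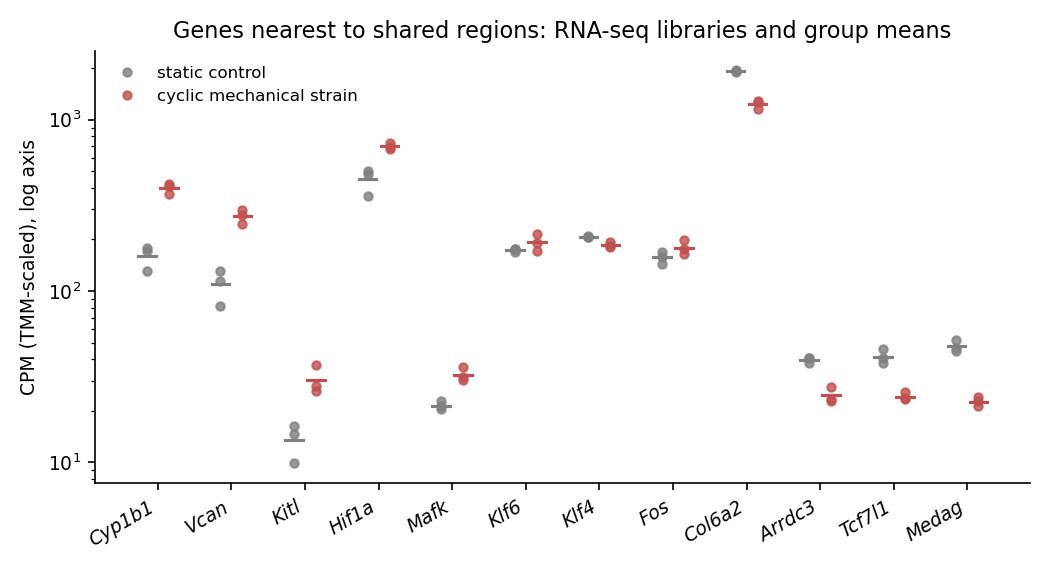
CPM in each RNA-seq library (points, log axis) and group mean (lines) for 12 genes nearest to shared regions, in static control (grey) and cyclic mechanical strain (red). Cyp1b1, Vcan, Kitl, Hif1a and Mafk stand higher under strain, Col6a2, Arrdc3, Tcf7l1 and Medag lower, and Klf6, Klf4 and Fos did not pass the test.

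Of 60 tested lncRNA genes with a start under a region 6 were lower and 0 higher by edgeR, with 14 lower and 2 higher at an unadjusted p under 0.05 and 9 lower and 1 higher by DESeq2. Over all lncRNA genes with a start 27 of 641 were lower and 10 higher. Snhg5 and Snhg16, host genes of small nucleolar RNAs, were among the 6, with Chaserr, Lockd, 5430416N02Rik and Gm17762. Of the 6, Snhg5 kept its call under every alternative tried, and the other 5 lost theirs without static control 3, strain replicate 2 or strain replicate 3. Snhg5 had 67.5, 57.7 and 73.6 CPM in static and 45.9, 33.9 and 41.3 CPM in strained cells (log2 fold change -0.72, SE 0.14, edgeR adjusted p = 0.00714). Its start lay under a region of 7.14 and 8.51 in GFP control and 6.25 in each knockout library. Counting by strand is not given in the sources used here, so reads of an lncRNA gene and an overlapping gene cannot be told apart.

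Some genes with several regions had little or no RNA. Cdkn2b, which codes for the cell-cycle inhibitor p15, had 5 regions at 82.2 to 168 kb and no count in any of the 6 RNA-seq libraries. One of them had 7.92 and 7.42 in GFP control and 8.76 and 6.74 in knockout cells. Tmc1 and Defb42 were likewise at or near 0 counts.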

How the data were processed

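Open chromatin was taken from 4 deposited peak lists, called per library without pooling, and RNA from 1 deposited table of counts per gene symbol in 6 libraries. The submitters' processing notes name mm10, Bowtie2 2.4.2, MACS2, STAR, HTSeq, DESeq2 and Trim Galore 0.6.5. The sources used here give no caller threshold, read shift, duplicate removal or strand setting. In the deposited lists each peak has a fold enrichment, a ratio over nearby background within one library, a −log10 q value and a score. Deposited counts were tested with edgeR 4.0.16 (quasi-likelihood, TMM, filterByExpr, two-sided) in R 4.3.3, Benjamini-Hochberg adjusted over 15335 genes, with all reported gene values from that fit. CPM are TMM-scaled, are not per length, and are compared within a gene only. The standard error is the log2 fold change over the square root of F. On data simulated for strain against static, 189 of 200 genes with a 2-fold change were recovered over 15335 genes, beside 15 false calls.

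The members and lists were chosen with earlier results of these data known. Motif shares planned at peak summits were computed instead on RefSeq start windows (250 bases before to 50 after a start), because no genome sequence was used here. Genes picked for naming were the 20 nearest to the most regions, up to 4 per list, the 10 called in each direction with the most regions, and every called gene of a list that is nearest to a region. Not all of the genes picked are given above, and some of the 10 in each direction are left out. Immediate-early genes were added as a whole after their values were seen, as were the called lncRNA genes and the regions with wide rank gaps. Of coding symbols on the chromosomes used, 98.2% were found in the count table. Exon and intron positions were not derived. The labels state no pairing of static and strained libraries with the same replicate number. One of the 10 highest regions falls under the naming rule and is not reported here.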

Additional observations from a re-analysis of the deposited data

How the results depend on the processing

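The number of regions fell from 2501 to 1311 when every library's peaks had to cover 50% of the merged region, and lay between 2506 and 3186 when 1 ATAC-seq library was left out. The share inside a coding gene moved to 49.6% beyond 5 kb and to 56.9% when genes of every biotype set the distance. The share at a RefSeq start was 20% with 50% coverage, 19.1% with a −log10 q of at least 5, 11.5% beyond 5 kb, 12.6% with every biotype, and 14.5% to 16.7% without a library. AP-1 letters were in 10.5% of start windows beyond 5 kb and in 5.96% to 8.04% under all other settings tried. The CTCF and TEAD shares stayed within the interval of the value reported under every setting tried. The CTCF share lay between 3.85% and 4.33% and the TEAD share between 2.94% and 3.35% without a library. The immediate-early genes nearest to a region numbered 7 to 11. Regions with both knockout ranks above the control ranks numbered 712 to 799 without a library (28.5% to 31.9%, against 35.5% to 36.6% of all shared regions), and below 995 to 1079 (39.8% to 43.1%, against 33.2% to 35.4%), since fewer ranks then have to differ.

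Without a filter on low counts 176 nearest genes were higher (11.1%, against 5.64% of all genes) and 158 lower (9.99%, against 6.22%). With the replicate block 191 were higher (13.5%, against 10.2%) and 176 of 1412 lower, against 10.6% of all genes. Deviations from the group mean correlated at 0.03, 0.21 and 0.09 between static and strained libraries of the same number. Between libraries of different numbers they correlated at -0.19 to 0.09. With 3 libraries per group these values cannot decide whether the numbers pair the libraries. Without 1 RNA-seq library there were 45 to 135 higher and 64 to 129 lower nearest genes. Of 55 genes with a call among those picked, not all of them given above, 27 kept it under every alternative run. The other 28 lost it under at least 1, mostly without a library, and none changed direction. Where a library was left out, the spread was pooled over the other 5. The cause of these shifts was not tested. Summit windows of another width, or with the summit taken from GFP control 1, were not run because no genome sequence was used. Peak lists hold no read depth, so heights have no counting error.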
